A study of Mus musculus with 51 samples.

Results

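MHC class I molecules carry peptides from the cell interior to the surface, where T cells read them. The 9 genes followed here encode the heavy chains H2-D1 and H2-K1, the light chain B2m, the transporter subunits Tap1 and Tap2, the loading factor Tapbp and the immunoproteasome subunits Psmb8, Psmb9 and Psmb10. All probe sets annotated to 1 of these symbols alone were taken, which gave 16 of 22626 probe sets, for 6 of 11807 genes. H2-D1 had 5 of them, H2-K1 had 4, Psmb9 had 3, Tapbp had 2, and Psmb8 and Psmb10 had 1 each. B2m, Tap1 and Tap2 have no probe set under their own symbol among those used and are not described. A further 5 probe sets are annotated to H2-K1, H2-D1 and LOC547349 together and are given apart.

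The study set the radiation-sensitive strain BALB/c against the more resistant C57BL/6, to find strain differences in transcripts at baseline and after radiation. Virgin BALB/c and C57BL/6 females received 4 weekly X-ray exposures from 8 weeks of age, as sham, at 7.5 cGy each (LD) or at 1.8 Gy each (HD). Mammary glands (MG), freed of the lymph node, were taken 4 hr or 1 month after the last exposure. Nucleated blood cells came from unirradiated females of both strains at 9 weeks of age. The 51 arrays comprise 20 BALB/c and 23 C57BL/6 MG arrays and 4 blood arrays of each strain. Each MG group had 4 arrays, except that BALB/c LD 1 month had 2 and BALB/c sham 4 hr, C57BL/6 sham 4 hr and BALB/c sham 1 month had 3 each. No transgene or agent other than X-rays is named for any group. The paper states that BALB/c carries polymorphisms of DNA-PKcs, with less of the protein and lower catalytic activity. All MG arrays of a strain lay on a plate of their own, so plate and strain cannot be told apart in the MG. The blood arrays shared 1 plate.

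The values are log2 intensities after RMA, a method that corrects background, equalises the arrays and summarises the probes of a probe set. The median of an array was 6.16 to 6.36 in the MG and 4.61 to 4.70 in blood. Contrasts of strain, dose and time were therefore taken within a tissue and within a probe set. Levels set side by side across tissues or probe sets are descriptions. The luminal epithelium markers (10 of 10 measured) averaged 7.25 to 10.87 over the MG arrays and 3.79 to 5.50 over the blood arrays. The leukocyte markers (10 of 10) averaged 9.37 to 11.21 in blood and 6.99 to 10.56 in the MG. In 9 of the 51 arrays the mean of a list of markers of another tissue or cell type stood more than 2 log2 units above the median array. Skeletal muscle markers were high in 5 MG arrays, among them C57BL/6 sham 1 month replicate 2 (by 5.70), BALB/c HD 4 hr replicate 1 (by 6.79) and BALB/c HD 1 month replicate 3 (by 3.47). B cell markers were high in BALB/c HD 1 month replicate 1 (by 3.22). In blood, liver markers were high in C57BL/6 replicate 4 (by 9.21) and BALB/c replicate 2 (by 2.77). Where leaving these arrays out ended or added a call of a member, the value without them is given beside the result. In tissue RNA, fewer cells of a type and less RNA per cell cannot be told apart.

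As background, the immunoproteasome subunits Psmb8, Psmb9 and Psmb10 take the place of constitutive catalytic subunits after exposure to interferon gamma and change the cleavage of proteins to peptides. Tap1 and Tap2 pump these peptides into the endoplasmic reticulum, and Tapbp (tapasin) holds empty class I molecules at the transporter until a peptide binds. H2-K1 and H2-D1 are among the most polymorphic genes of the mouse. BALB/c carries the d haplotype of the H2 complex and C57BL/6 the b haplotype. Genes of the class I pathway are known to respond to interferons through shared promoter elements.

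The genes lie close together. H2-K1 (chr17:33996012-34000619, GRCm38.p6), Tapbp (chr17:33919478-33929290), Psmb9 (chr17:34182030-34187330), Psmb8 (chr17:34198195-34201454) and H2-D1 (chr17:35263094-35267497) all lie in the H2 complex, and only Psmb10 (chr8:105935728-105938392) of the measured genes lies elsewhere. The 250 bases before a start listed by RefSeq are shown for H2-D1 (chr17:35262844-35263093, + strand) and H2-K1 (chr17:34000348-34000597, - strand), because these 2 genes held the members called between the strains in sham MG. The sequences were taken from RefSeq on GRCm38.p6, which is the C57BL/6 genome, and 8 of the 9 members had such a window. For H2-K1 the start of one of its RefSeq windows was used, which lies within the annotated extent of the gene. Capitals mark matches on either strand to GGGNNTTCC, a kappaB-type motif, and GAANNGAAA, an interferon response motif, which matched on the reverse strand in both windows.
H2-D1: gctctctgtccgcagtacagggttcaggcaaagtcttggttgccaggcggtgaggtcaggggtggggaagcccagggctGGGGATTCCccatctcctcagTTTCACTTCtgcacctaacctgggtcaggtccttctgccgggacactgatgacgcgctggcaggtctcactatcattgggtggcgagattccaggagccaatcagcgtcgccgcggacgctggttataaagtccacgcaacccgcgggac
H2-K1: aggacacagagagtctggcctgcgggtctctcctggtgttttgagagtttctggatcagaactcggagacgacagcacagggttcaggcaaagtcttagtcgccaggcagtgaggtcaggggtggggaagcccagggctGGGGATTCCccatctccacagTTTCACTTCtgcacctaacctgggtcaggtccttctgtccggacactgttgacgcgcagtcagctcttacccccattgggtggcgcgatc
Both windows held 1 match to each motif, in the same order. The kappaB-type match lay 171 to 163 bases before the H2-D1 start and 111 to 103 bases before the H2-K1 start, inside the longest identical stretch of 47 bases. The interferon response match lay 150 to 142 and 90 to 82 bases before the same starts. Over the 191 aligned positions of the windows 87.4% were identical. Of all 32851 promoter windows of this length in the table, 5.0% held the kappaB-type motif, 6.3% the interferon response motif and 0.332% both. The motifs did not overlap each other. Of the other members with a window, B2m, Tap1, Tapbp, Psmb9 and Psmb10 held neither, nor the motif TTCNNNGAA of interferon gamma response elements, which Psmb8 held once and which 7.0% of all windows held. Psmb9 and Tap1 start back to back. The 225 bases between their starts (chr17:34187331-34187555, + strand) have the Psmb9 start on the left and the Tap1 start on the right. They are shown because 1 of the 3 Psmb9 probe sets was the only member that passed between HD and sham at 1 month.
Psmb9 to Tap1: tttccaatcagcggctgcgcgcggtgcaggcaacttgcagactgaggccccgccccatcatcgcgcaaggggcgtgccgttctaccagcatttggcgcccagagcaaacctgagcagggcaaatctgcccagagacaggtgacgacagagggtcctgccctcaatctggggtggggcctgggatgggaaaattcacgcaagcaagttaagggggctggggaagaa

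The strain difference depended on the probe set within H2-D1, a heavy chain gene. Of its 5 probe sets, 2 were higher in BALB/c than in C57BL/6 MG, with measured ratios of 126-fold and 212-fold. Another 3 did not pass the test, 2 of these at low levels in both strains. The strain comparison of the MG used the 13 sham arrays, with the difference taken within each time and averaged. It was fitted with limma over all probe sets and called at an adjusted p under 0.05, and 9.14% of all probe sets passed. Probe set 1452544_x_at of H2-D1 averaged 11.98 in BALB/c and 4.25 in C57BL/6 sham MG, with 7.73 as its log2 fold change (SE 0.08, adjusted p = 6.89e-15, 212-fold). Over all MG arrays its values ran from 11.80 to 12.27 with a median of 11.99 in the 20 BALB/c arrays, and from 3.96 to 4.58 with a median of 4.28 in the 23 C57BL/6 arrays. The strains thus lay far apart with no array in between, and the C57BL/6 values lay below the median of every MG array. In C57BL/6 sham MG the group means stood at percentiles 17.8 and 18.9 of the array for 1452544_x_at and at 31.8 and 23.9 for 1427651_x_at (4 hr and 1 month). The values used hold no detection call, so these low levels cannot be told apart from background, and both ratios are then lower bounds of the difference in signal.

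Probe set 1427651_x_at of H2-D1 averaged 11.65 in BALB/c and 4.68 in C57BL/6 sham MG, with 6.98 as its log2 fold change (SE 0.13, adjusted p = 1.37e-12, 126-fold). Over all MG arrays it ran from 11.51 to 11.92 (median 11.72) in BALB/c and from 4.00 to 5.53 (median 4.71) in C57BL/6. The C57BL/6 arrays spread more widely than the BALB/c arrays, with the highest value in HD 1 month replicate 2. Probe set 1451784_x_at of H2-D1 showed no such gap, with 12.45 to 12.85 (median 12.62) in BALB/c and 12.32 to 12.75 (median 12.58) in C57BL/6 MG. Its strain log2 fold change in sham MG was 0.10 (SE 0.06, adjusted p = 0.378). Probe sets 1450170_x_at and 1451934_at of H2-D1 gave 0.12 (SE 0.07, adjusted p = 0.369) and 0.04 (SE 0.08, adjusted p = 0.797), and the arrays of both strains overlapped. In sham MG 1450170_x_at averaged 5.14 in BALB/c and 5.03 in C57BL/6, and 1451934_at averaged 3.99 and 3.95. At such levels they may read little signal in either strain, so only 1451784_x_at gives a contrast at a high level.

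Blood showed the same split. Of the 22626 probe sets, 0.482% passed between the strains in blood, and 2 of the 16 members did so, both of H2-D1. Probe set 1452544_x_at had 10.74, 11.46, 11.42 and 11.15 in the BALB/c blood arrays, against 4.16, 4.19, 4.16 and 3.45 in the C57BL/6 blood arrays. The log2 fold change was 7.20 (SE 0.22, adjusted p = 5.79e-06). Probe set 1427651_x_at had 10.20, 10.33, 10.12 and 9.99 in BALB/c against 4.39, 4.34, 4.19 and 3.61 in C57BL/6, and its log2 fold change was 6.03 (SE 0.18, adjusted p = 5.27e-06). Both differences were as clear without C57BL/6 replicate 4, the array with liver transcripts, at 7.02 (adjusted p = 5.93e-08) and 5.86 (adjusted p = 2.3e-08). Probe set 1451784_x_at gave 0.37 in blood (SE 0.23, adjusted p = 0.789), with the arrays overlapping.

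**Figure D1:**
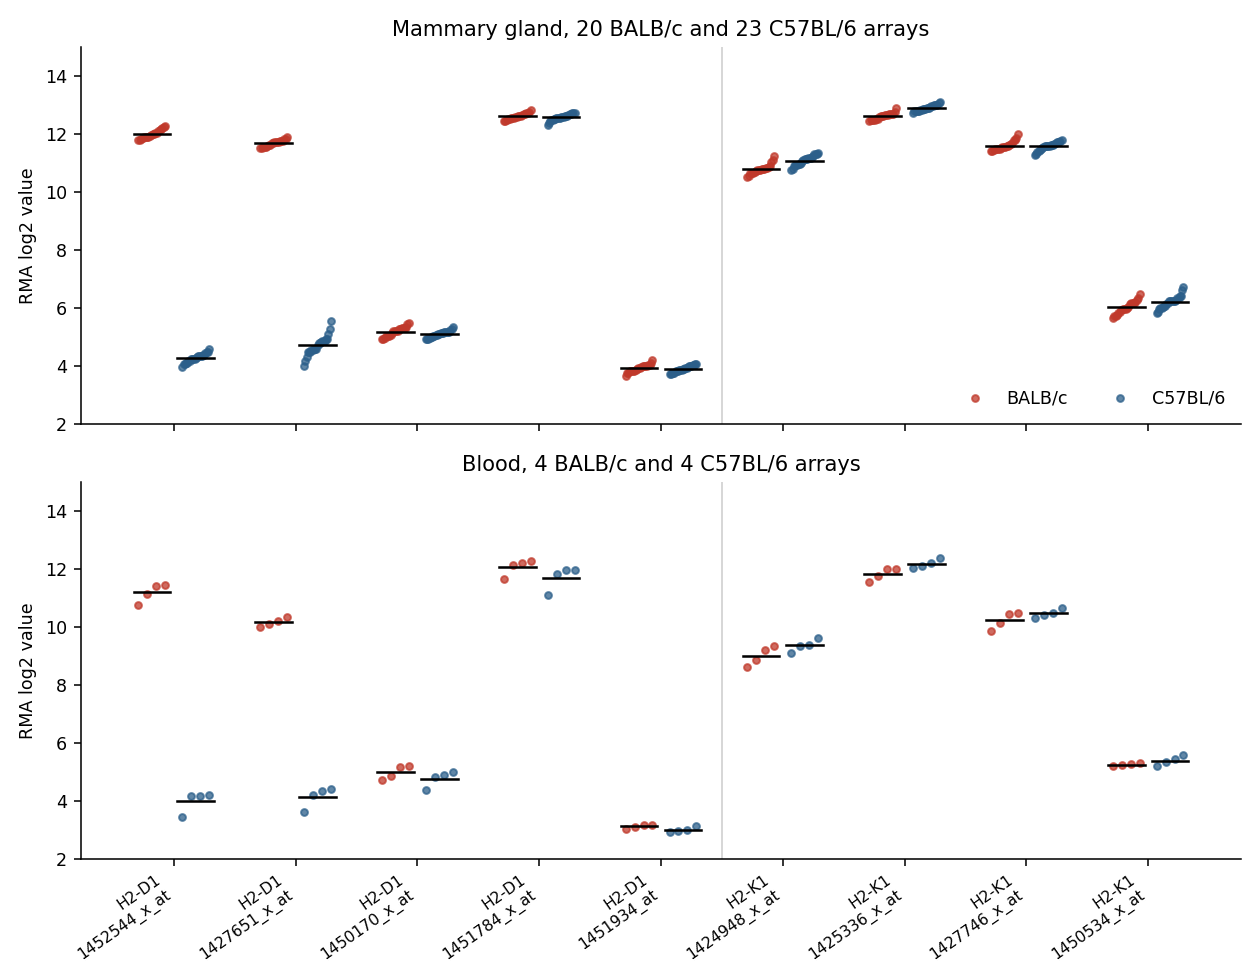
RMA log2 values of the 5 H2-D1 and 4 H2-K1 probe sets, 1 point per array with the mean as a bar, for BALB/c and C57BL/6 in the MG (top) and in blood (bottom). Probe sets 1427651_x_at and 1452544_x_at of H2-D1 lie far higher in BALB/c than in C57BL/6 in both tissues, whereas the other 7 differ by less than 0.5 log2 units between the strain means.

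The probe sets of a gene were compared with each other in an exact permutation test of the strain labels on the difference between the 2 probe sets on each array. It was two-sided, with p adjusted over 32 tests (10 pairs of H2-D1 and 6 of H2-K1 in sham MG and in blood). In sham MG, 7 of 10 H2-D1 pairs differed in the strain log2 fold change. The 6 pairs that join one of the 2 high probe sets with one of the other 3 all reached p = 0.000583 (adjusted p = 0.00311, exact permutation), the smallest p that 6 BALB/c against 7 C57BL/6 arrays allow. Probe sets 1427651_x_at and 1452544_x_at of H2-D1 also passed this test against each other, the first minus the second being -0.73 log2 units (exact permutation, adjusted p = 0.0186). As both C57BL/6 levels were near the low end of the arrays, this value is not a measured difference between the strain effects of these 2 probe sets. In blood the same 7 pairs reached p = 0.0286, the smallest that 4 against 4 arrays allow in an exact two-sided test, and an adjusted p of 0.0538, so that none passed there. The difference between 1451784_x_at and 1452544_x_at was -7.63 in sham MG and -6.83 in blood. Of the other 3 probe sets, only 1451784_x_at had a high level in both strains.

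H2-K1 showed a small strain difference in the other direction. Probe set 1425336_x_at was lower in BALB/c sham MG, with a mean of 12.59 against 12.85 in C57BL/6 and a log2 fold change of -0.26 (SE 0.07, adjusted p = 0.031). Over all MG arrays it ran from 12.47 to 12.92 (median 12.63) in BALB/c and from 12.74 to 13.11 (median 12.89) in C57BL/6. The BALB/c arrays all lay below the C57BL/6 arrays among the sham arrays, while over all doses the ranges overlapped. The call was lost in 6 of the 13 fits with 1 array left out, where the log2 fold change ran from -0.28 to -0.22 and the adjusted p reached 0.0768. Without the 2 sham arrays that held muscle transcripts it was -0.29 (adjusted p = 0.0378). In blood this probe set had 11.55, 12.01, 11.99 and 11.76 in BALB/c against 12.21, 12.05, 12.11 and 12.40 in C57BL/6, with no overlap and a log2 fold change of -0.36 (SE 0.13, adjusted p = 0.49).

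The other H2-K1 probe sets did not pass in either tissue. In sham MG 1424948_x_at gave -0.19 (adjusted p = 0.253), 1450534_x_at gave -0.27 (adjusted p = 0.133) and 1427746_x_at gave 0.04 (adjusted p = 0.817). The strain log2 fold change of 1425336_x_at minus that of 1427746_x_at was -0.30 (exact permutation, adjusted p = 0.00533). That of 1427746_x_at exceeded that of 1450534_x_at by 0.31 (exact permutation, adjusted p = 0.00932) and that of 1424948_x_at by 0.24 (exact permutation, adjusted p = 0.0186), while the other 3 H2-K1 pairs did not pass. None of the 6 H2-K1 pairs passed in blood, where the smallest adjusted p was 0.0962.

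The 5 probe sets shared by H2-K1, H2-D1 and LOC547349 repeated the split seen within H2-D1. Probe set 1425614_x_at ran from 11.66 to 12.21 in the BALB/c and from 3.95 to 4.55 in the C57BL/6 MG arrays, with a log2 fold change of 7.67 in sham MG (SE 0.11, adjusted p = 5.51e-14) and 7.43 in blood (SE 0.17, adjusted p = 1.53e-06). The other 4 gave 0.02 to 0.36 in sham MG and did not pass, the nearest being 1426324_at with 0.36 (SE 0.11, adjusted p = 0.056). The probe sequences were not analysed here, so which allele or gene each of these probe sets detects is not known from the data.

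The loading factor and the immunoproteasome subunits did not pass between the strains in sham MG or in blood. Tapbp, which bridges class I molecules and the transporter, gave -0.21 (SE 0.07, adjusted p = 0.0833) with 1421812_at and -0.12 (SE 0.11, adjusted p = 0.565) with 1450378_at in sham MG. Psmb8 gave 0.09 (SE 0.11, adjusted p = 0.695) and Psmb10 gave -0.10 (SE 0.10, adjusted p = 0.621). Psmb9 gave 0.21 (SE 0.08, adjusted p = 0.122) with 1450696_at but -0.29 (SE 0.11, adjusted p = 0.14) with 1416016_at and 0.02 (SE 0.09, adjusted p = 0.916) with 1448177_at. Probe sets 1450696_at and 1416016_at thus did not point the same way. The level of 1448177_at was low in both strains (4.32 in BALB/c and 4.30 in C57BL/6 sham MG), so its value gives no direction. Both 1416016_at and 1448177_at are tied to Psmb9 through a single expressed sequence tag, and whether they detect its transcript was not tested. In blood Psmb9 1450696_at had 8.31, 8.71, 8.59 and 8.57 in BALB/c against 8.21, 8.20, 8.29 and 7.68 in C57BL/6, with no overlap and a log2 fold change of 0.45 (SE 0.16, adjusted p = 0.461).

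Over all 16 members the median strain log2 fold change was 0.03 in sham MG and 0.25 in blood, beside medians over all probe sets of 0.01 and 0.02. In the same blood contrast leukocyte markers were positive in 10 of 10 (median 0.48) and T cell markers in 10 of 11 (0.49). Macrophage markers were positive in 10 of 11 (0.49) and liver markers in 0 of 11 (-1.48), with none of these markers called. The part of cell composition in the blood value of the members was not tested. Without both blood arrays that held liver transcripts the median of the members was 0.04, with 9 of 16 positive, and that of the leukocyte markers 0.08. Of the other class I genes, 14 measured of 21 listed, 2 were higher and 4 lower in BALB/c sham MG. H2-Q10, a secreted class I molecule made mainly by the liver, was lower by a log2 fold change of -5.07 (SE 0.18, adjusted p = 1.13e-09). Hfe, the class I-like regulator of iron uptake, gave -1.35 (SE 0.17, adjusted p = 0.00031), H2-Q4 gave -1.09 (SE 0.19, adjusted p = 0.00339) and H2-Q1 gave -0.60 (SE 0.11, adjusted p = 0.0035). None of the 14 passed in blood. Among 26 measured interferon-inducible genes 2 were lower in BALB/c sham MG, the GTPase genes Iigp1 (-1.03, SE 0.16, adjusted p = 0.00127) and Irgm2 (-1.03, SE 0.22, adjusted p = 0.00986). In blood Oasl2, of the oligoadenylate synthetase family, was lower (-3.00, SE 0.45, adjusted p = 0.042).

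The strain differences were also taken within each of the 6 dose and time groups of the MG, in a fit of all 43 arrays. The share of all probe sets called was 6.51% in sham 4 hr, 5.72% in LD 4 hr, 8.16% in HD 4 hr, 5.09% in sham 1 month, 6.11% in LD 1 month and 6.25% in HD 1 month. Between 3 and 5 of the 16 members passed in each group. H2-D1 1452544_x_at gave log2 fold changes of 7.62 to 7.96 over the 6 groups and 1427651_x_at gave 6.75 to 7.17. H2-K1 1425336_x_at was lower in BALB/c in all 6 groups, at -0.25 in sham 4 hr, -0.34 in LD 4 hr, -0.26 in HD 4 hr, -0.26 in sham 1 month, -0.34 in LD 1 month and -0.27 in HD 1 month, with adjusted p from 0.00028 to 0.0274. These 3 probe sets were the members called in the same direction in all 6 groups.

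Other members passed in 1 or 2 of the groups. H2-K1 1424948_x_at was lower in BALB/c in LD 4 hr (-0.43, SE 0.10, adjusted p = 0.00562) and LD 1 month (-0.41, SE 0.12, adjusted p = 0.0433). Tapbp was lower in LD 4 hr with 1421812_at (-0.28, SE 0.08, adjusted p = 0.0367) and in LD 1 month with 1450378_at (-0.61, SE 0.18, adjusted p = 0.0391). The LD 1 month values rest on 2 BALB/c arrays, with 7.43 and 6.99 for Tapbp 1450378_at against 7.89, 7.92, 7.80 and 7.67 in C57BL/6. No probe set of Psmb8, Psmb9 or Psmb10 passed in any of the 6 groups. Without the arrays that held another tissue, a refit chosen after seeing the data, 4 rather than 1 of the members passed as lower in BALB/c HD 1 month, the 3 added being Psmb9 1416016_at (-0.97, adjusted p = 0.00239), H2-K1 1424948_x_at (-0.50, adjusted p = 0.0145) and Tapbp 1421812_at (-0.37, adjusted p = 0.0237). For HD 1 month this refit left out BALB/c replicates 1 and 3, so the 3 added calls rest on 2 BALB/c arrays. There 3.84% of all probe sets passed. In the same refit Tapbp 1450378_at was no longer called in LD 1 month (adjusted p = 0.0564).

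**Figure D2:**
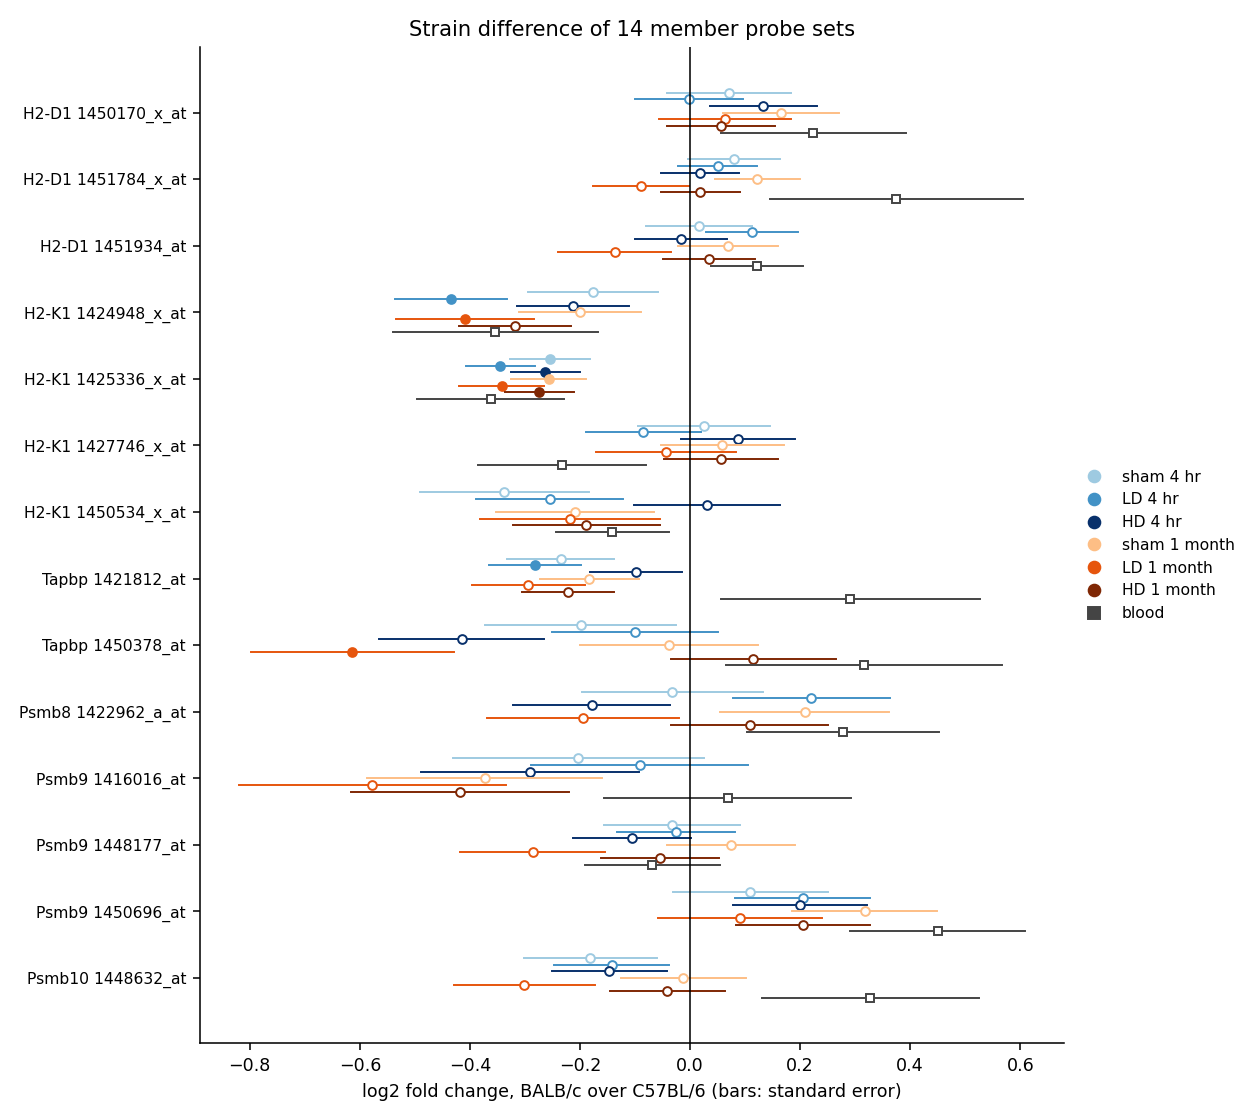
Log2 fold change of BALB/c over C57BL/6 for 14 member probe sets in the 6 dose and time groups of the MG (circles) and in blood (squares), with the standard error as a bar and filled symbols for an adjusted p under 0.05. H2-D1 1427651_x_at and 1452544_x_at, at 6.03 to 7.96, are off this scale and left out. H2-K1 1425336_x_at is filled and below 0 in all 6 MG groups.

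No member passed 4 hr after radiation. After LD at 4 hr the share of all probe sets called was 0% in BALB/c and 0% in C57BL/6, and after HD at 4 hr it was 5.14% in BALB/c and 0.716% in C57BL/6. The members had log2 fold changes of -0.26 to 0.30 after HD in BALB/c and -0.19 to 0.27 in C57BL/6. Their medians were 0.02 and -0.01, beside medians over all probe sets of -0.004 and -0.003. Psmb8 had 9.05, 8.81, 9.00 and 8.92 in BALB/c HD 4 hr against 9.17, 9.62 and 8.82 in sham 4 hr, a log2 fold change of -0.26 (SE 0.19, adjusted p = 0.499), and the arrays overlapped. In C57BL/6 it had 8.95, 9.12, 9.18 and 9.25 against 9.21, 9.19 and 9.31, a log2 fold change of -0.11 (SE 0.10, adjusted p = 0.693). After LD at 4 hr no member had an unadjusted p under 0.05 in either strain. They lay between -0.19 and 0.15 in BALB/c and between -0.24 and 0.07 in C57BL/6.

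At 1 month after HD 14 of the 16 members had a positive log2 fold change in each strain, and 1 passed the test, in C57BL/6. The 16 probe sets stand for 6 genes on the same arrays, so counts of signs here and below are descriptions. In C57BL/6, where 0.915% of all probe sets passed, Psmb9 1450696_at, of the immunoproteasome, rose. Its values were 9.14, 9.00, 9.26 and 8.82 in HD 1 month against 8.60, 8.52, 8.61 and 8.73 in sham 1 month. The lowest HD array lay above the highest sham array, and the log2 fold change was 0.44 (SE 0.10, adjusted p = 0.0434). The other Psmb9 probe sets did not pass, with 0.24 (adjusted p = 0.458) for 1416016_at and 0.10 (adjusted p = 0.726) for 1448177_at, and their arrays overlapped. The call of 1450696_at was lost in 6 of the 8 fits with 1 array left out, with log2 fold changes of 0.37 to 0.52 and adjusted p up to 0.132. Without C57BL/6 sham 1 month replicate 2, the array with muscle transcripts, it was 0.41 (adjusted p = 0.102). The call was also lost without C57BL/6 HD 1 month replicate 1 (0.41), replicate 2 (0.46) or replicate 3 (0.37), without sham 1 month replicate 1 (0.44) or replicate 3 (0.44), and with the plate column as a covariate (0.45, adjusted p = 0.596).

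The median log2 fold change of the members in C57BL/6 was 0.21, beside 0.00 over all probe sets. An unadjusted p under 0.05 was reached by 9 members, all with a positive value, and by 17.4% of all probe sets. Psmb8 had 9.44, 9.59, 9.67 and 9.47 in C57BL/6 HD 1 month against 9.05, 9.23, 9.12 and 9.42 in sham, without overlap, and a log2 fold change of 0.34 (SE 0.09, adjusted p = 0.074). Psmb10 had 9.68, 9.72, 9.84 and 9.71 against 9.51, 9.39, 9.31 and 9.58, also without overlap, and 0.29 (SE 0.09, adjusted p = 0.0984). H2-K1 1424948_x_at had 11.31, 11.34, 11.30 and 11.30 against 11.18, 10.88, 10.78 and 11.24, with 0.29 (SE 0.10, adjusted p = 0.133). For these 3 the groups did not overlap, yet none passed, and the share of all probe sets without overlap was not counted. The 2 negative members were H2-D1 1451934_at (-0.09) and 1452544_x_at (-0.04). Leaving out sham replicate 2 kept 14 of 16 positive.

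In BALB/c HD 1 month 0.0177% of all probe sets passed against sham and no member did, with a smallest adjusted p of 0.27 among the members. Again 14 of 16 were positive, with a median of 0.18 beside 0.02 over all probe sets. Psmb8 had 10.19, 9.30, 9.87 and 9.25 in HD 1 month against 9.46, 9.52 and 9.25 in sham, a log2 fold change of 0.24 (SE 0.19, adjusted p = 0.688). Psmb9 1450696_at had 9.79, 8.98, 9.30 and 8.96 against 9.09, 8.95 and 8.75, with 0.33 (SE 0.15, adjusted p = 0.463). In both genes replicates 1 and 3 were high and replicates 2 and 4 lay within or near the sham range. Replicate 1 is the array with B cell transcripts (3.22 log2 units above the median array) and replicate 3 the array with muscle transcripts. Replicate 3 also had the highest mean of the interferon-inducible list in its group, 8.82, against 7.17 for the lowest. Without these 2 arrays 7 of the 16 members were positive and 9 negative, with a median of -0.0045.

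Some members showed another order in BALB/c, among them H2-K1 1450534_x_at and Tapbp 1450378_at. H2-K1 1450534_x_at had 6.19, 6.47, 6.19 and 6.16 in HD 1 month against 6.15, 5.70 and 5.66 in sham, a log2 fold change of 0.41 (SE 0.14, adjusted p = 0.27). It is the dimmest H2-K1 probe set, as the others averaged 10.82 to 12.58 in BALB/c sham 1 month. Tapbp 1450378_at had 8.22, 7.96, 8.06 and 7.95 against 7.77, 7.53 and 7.66, with 0.39 (SE 0.20, adjusted p = 0.494). All 4 HD arrays lay above all 3 sham arrays for both, including replicates 2 and 4. The same held for H2-K1 1425336_x_at (0.20, adjusted p = 0.378) and H2-D1 1427651_x_at (0.17, adjusted p = 0.483). The share of all probe sets with such an order was not counted.

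**Figure D3:**
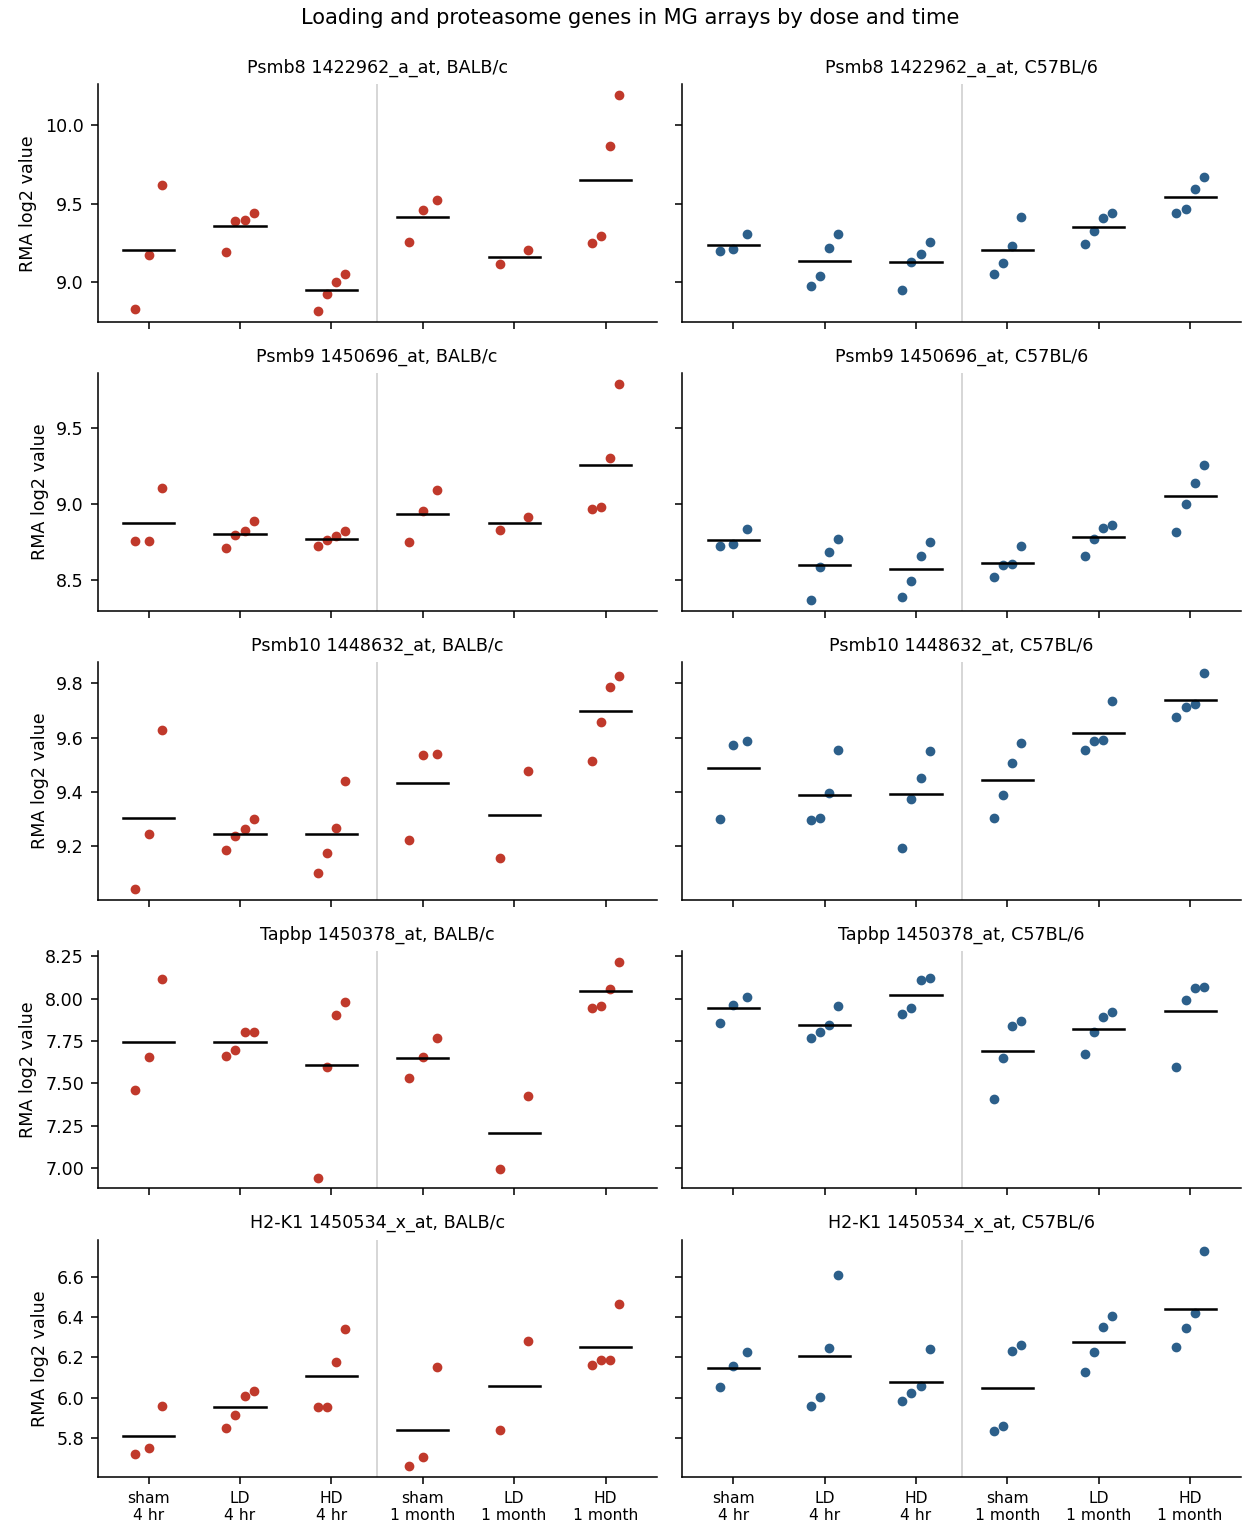
RMA log2 values of Psmb8, Psmb9, Psmb10, Tapbp and H2-K1, each at its probe set with the smallest p in BALB/c HD 1 month against sham, in BALB/c (left) and C57BL/6 (right) MG by dose (sham, LD, HD) and time, 1 point per array with the group mean as a bar. The probe sets were thus chosen from values shown here, and H2-K1 appears as 1450534_x_at, its dimmest probe set. In C57BL/6 the HD 1 month arrays of Psmb8, Psmb9 1450696_at and Psmb10 all lie above the sham 1 month arrays. The other Psmb9 probe sets, not shown, overlapped there. In BALB/c Psmb8 and Psmb9 1450696_at have 2 high and 2 low HD 1 month arrays.

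LD at 1 month gave no calls, at 0% of all probe sets for BALB/c and 0% for C57BL/6. The signs of the members differed between the strains, but the 16 probe sets stand for 6 genes on the same arrays. In BALB/c 5 of 16 were positive with a median of -0.07, and in C57BL/6 15 of 16 were positive with a median of 0.13, beside medians over all probe sets of 0.02 and 0.00. Among the BALB/c falls, H2-D1 1451934_at (-0.32) and Psmb9 1448177_at (-0.34) were at low levels, 3.72 and 3.98 in LD 1 month. Psmb8 had 9.20 and 9.11 in BALB/c LD 1 month against 9.46, 9.52 and 9.25 in sham, and 9.24, 9.44, 9.41 and 9.32 in C57BL/6 LD 1 month against 9.05, 9.23, 9.12 and 9.42 in sham. The difference between the strains in the LD response at 1 month was itself tested, and 0% of all probe sets passed. The members gave -0.58 to 0.01 there, with 1 of 16 positive and a smallest adjusted p of 0.514. BALB/c LD 1 month holds 2 arrays, which limits this comparison. The differences between the strains in the LD response at 4 hr (0%), the HD response at 4 hr (0%) and the HD response at 1 month (0%) gave no calls either, and the smallest adjusted p of a member in any of these 3 was 0.814.

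No member passed between the times in sham glands. Between sham 1 month and sham 4 hr 0% of all probe sets passed in BALB/c and 2.84% in C57BL/6, with no member among them. The member nearest to the threshold was Tapbp 1450378_at in C57BL/6, with 7.87, 7.65, 7.40 and 7.84 at 1 month against 7.86, 7.96 and 8.01 at 4 hr, a log2 fold change of -0.25 (SE 0.12, adjusted p = 0.257).

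Between the times after HD, 2 immunoproteasome genes passed, Psmb9 with 1 of its 3 probe sets. This comparison, and that of HD with LD at 1 month, were chosen after seeing the data. In C57BL/6 1.15% of all probe sets passed between HD 1 month and HD 4 hr, and 2 of 16 members rose. Psmb9 1450696_at had 9.14, 9.00, 9.26 and 8.82 at 1 month against 8.39, 8.49, 8.75 and 8.66 at 4 hr, a log2 fold change of 0.48 (SE 0.10, adjusted p = 0.0249). Psmb8 had 9.44, 9.59, 9.67 and 9.47 against 8.95, 9.12, 9.18 and 9.25, a log2 fold change of 0.42 (SE 0.09, adjusted p = 0.0364). In both the 2 groups did not overlap. The other Psmb9 probe sets did not pass, with 0.13 for 1416016_at and -0.15 for 1448177_at, and their arrays overlapped. With 1 array left out at a time, Psmb9 was called in 4 of 8 fits (adjusted p up to 0.115) and Psmb8 in 2 of 8 (adjusted p up to 0.136), with log2 fold changes of 0.41 to 0.56 and 0.36 to 0.46.

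In BALB/c 2.27% passed between these times and 1 member did. Psmb8 had 10.19, 9.30, 9.87 and 9.25 in HD 1 month against 9.05, 8.81, 9.00 and 8.92 in HD 4 hr, without overlap, and rose by 0.70 on the log2 scale (SE 0.18, adjusted p = 0.0492). It was called in 2 of 8 fits with 1 array left out, and without the arrays that held another tissue it was 0.36 (adjusted p = 0.563). Psmb10 had 9.83, 9.79, 9.66 and 9.52 against 9.27, 9.17, 9.10 and 9.44, with 0.45 (SE 0.12, adjusted p = 0.0576). Psmb9 1450696_at gave 0.49 (SE 0.14, adjusted p = 0.0746). Psmb9 1416016_at gave -0.002 and 1448177_at gave -0.09, with overlap. The arrays of Psmb8, Psmb10 and Psmb9 1450696_at did not overlap between the times in either strain. How many of all probe sets showed no overlap was not counted, so these are descriptions only. No heavy chain probe set passed, but several were also higher without overlap. In C57BL/6 these were H2-K1 1424948_x_at (0.32, adjusted p = 0.104), 1450534_x_at (0.36, adjusted p = 0.163) and 1425336_x_at (0.14, adjusted p = 0.258). In BALB/c they were H2-K1 1425336_x_at (0.13, adjusted p = 0.317) and H2-D1 1427651_x_at (0.16, adjusted p = 0.252).

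Against LD at 1 month HD gave no member calls, with 0.00884% of all probe sets past the threshold for BALB/c and 0% for C57BL/6. In BALB/c 16 of 16 members were positive (median 0.19), or 14 of 16 without the 2 arrays that held another tissue (median 0.11), and in C57BL/6 14 of 16 (median 0.11). The nearest was Tapbp 1450378_at in BALB/c, with 8.22, 7.96, 8.06 and 7.95 in HD against 7.43 and 6.99 in LD, a log2 fold change of 0.84 (SE 0.22, adjusted p = 0.198). The comparisons of HD 1 month with sham, with HD 4 hr and with LD 1 month share the HD 1 month arrays.

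**Figure D4:**
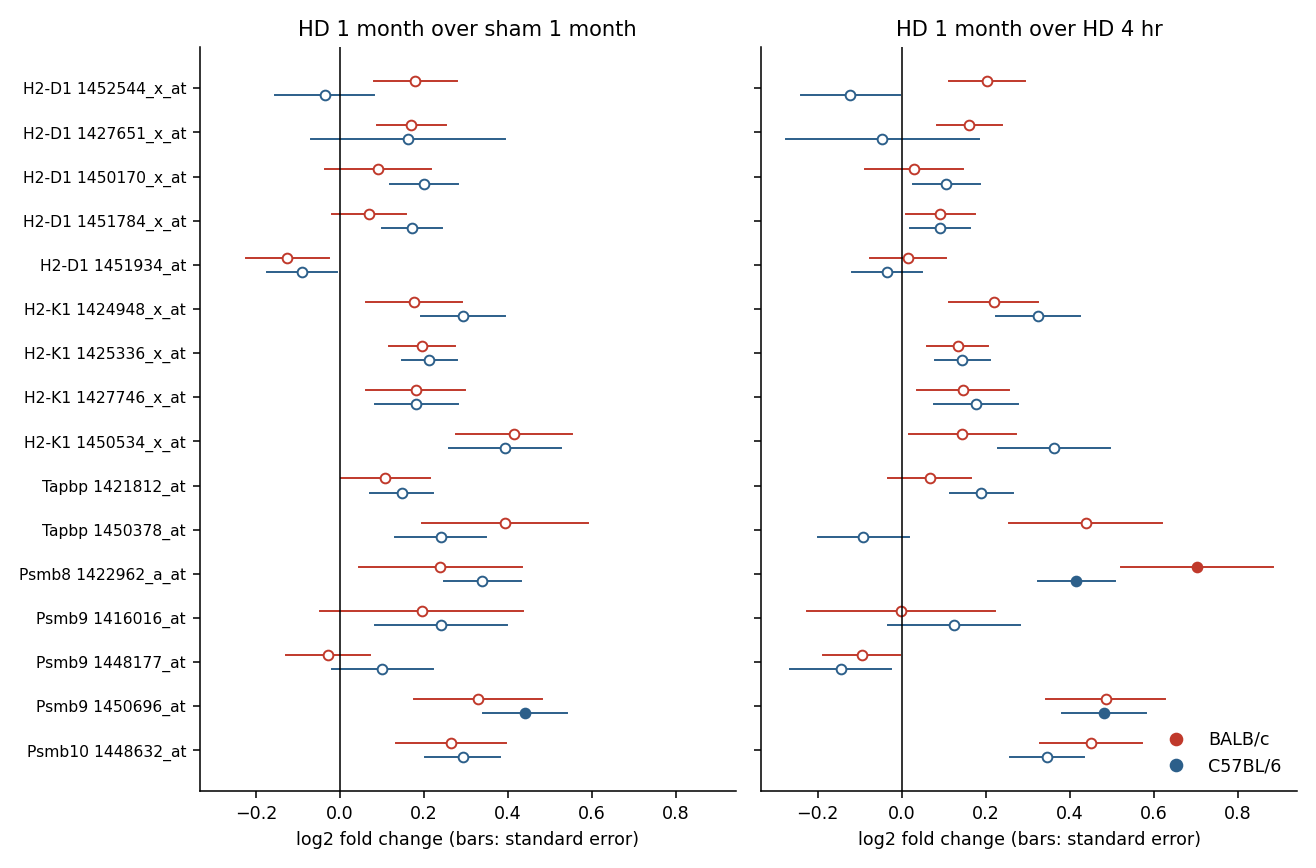
Log2 fold change of the 16 member probe sets for HD 1 month over sham 1 month (left) and HD 1 month over HD 4 hr (right) in BALB/c and C57BL/6, with the standard error as a bar and filled circles for an adjusted p under 0.05. The filled circles are Psmb9 1450696_at on the left (C57BL/6) and Psmb8 (both strains) and Psmb9 1450696_at (C57BL/6) on the right, at 0.42 to 0.70 log2 units.

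Other genes of the pathway are given for the same comparisons. For interferon-inducible genes, 26 measured of 34 listed, the log2 fold change of HD 1 month against sham was positive in 26 in BALB/c (median 0.45, none called) and in 26 in C57BL/6 (median 0.35, 2 called). After LD at 1 month 23 were positive in C57BL/6 (median 0.29) and 4 in BALB/c (median -0.23). HD against LD at 1 month gave 16 in C57BL/6 (median 0.05) and 26 in BALB/c (median 0.61). In BALB/c the list mean ran from 7.17 to 8.82 in HD 1 month and from 6.85 to 8.03 in sham 1 month. BALB/c HD 1 month here included the 2 arrays that held another tissue. Cxcl9, a chemokine induced by interferon gamma, rose in C57BL/6 by 1.22 on the log2 scale (SE 0.21, adjusted p = 0.0123). Between HD 1 month and HD 4 hr in C57BL/6, 6 of the 26 were called higher, among them the GTPase genes Iigp1 (1.06, SE 0.13, adjusted p = 0.000122), Tgtp1 (1.18, SE 0.21, adjusted p = 0.00602) and Irgm2 (0.91, SE 0.17, adjusted p = 0.0123). Against sham, other class I genes had medians of 0.12 in BALB/c and 0.17 in C57BL/6 with 0 of 14 called in each. The constitutive proteasome subunits and activators had medians of 0.07 in BALB/c and 0.03 in C57BL/6 with 0 of 18 called in each. Peptide loading partners had medians of 0.06 in both strains, with 0 of 12 called in BALB/c and 1 of 12, higher, in C57BL/6. Of the class I regulators, 0 of 23 passed in BALB/c, and 1 was higher and 1 lower in C57BL/6.

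Immune cell markers moved beside these values, and their part in the result was not tested. Against sham, 10 of 11 T cell markers and 10 of 10 B cell markers were positive in both strains, with medians of 0.76 and 0.81 in BALB/c and 0.35 and 0.39 in C57BL/6, and none was called. The mean level of the B cell list ran from 4.43 to 7.68 in BALB/c HD 1 month against 4.37 to 4.62 in sham, and from 4.40 to 5.97 in C57BL/6 HD 1 month against 4.40 to 4.49 in sham. The mean level of the T cell list ran from 4.97 to 7.63 in BALB/c HD 1 month against 4.99 to 5.09 in sham, and from 5.02 to 6.60 in C57BL/6 HD 1 month against 5.09 to 5.19 in sham. The high ends came from BALB/c replicate 1 and C57BL/6 replicate 3, and C57BL/6 replicate 3 also had the highest Psmb8, Psmb9 1450696_at and Psmb10 value of its group. Macrophage markers were positive in 10 of 11 in BALB/c and in 0 of 11 in C57BL/6, and leukocyte markers in 10 of 10 and 3 of 10. Of 10 luminal epithelium markers none was positive in BALB/c (median -1.22, none called), and 2 passed in C57BL/6, Ehf (log2 fold change -1.73) and Elf5 (-0.65), both lower in HD 1 month. Myoepithelium markers were positive in 0 of 8 in both strains (median -0.36 in BALB/c and -0.28 in C57BL/6, none called). Adipocyte markers were positive in 5 of 7 in BALB/c (median 0.06) and in 7 of 7 in C57BL/6 (median 0.40), where Pparg, the master regulator of fat cell formation, rose (0.66, adjusted p = 0.0465).

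Across the 43 MG arrays, with each group centred on its mean, the 2 highest correlations between members of different genes joined immunoproteasome subunits. Psmb8 correlated with Psmb9 1450696_at at r = 0.74 and with Psmb9 1416016_at at r = 0.73, and Psmb10 correlated with the heavy chain H2-D1 1451784_x_at at r = 0.70. The brightest probe sets of Tapbp, Psmb8, Psmb9 and Psmb10 were averaged to a score after standardising each, and the genes most like it over these 43 arrays were named out of 11801 genes. The nearest was Psme2, a subunit of the proteasome activator PA28, with r = 0.76 (0.78 over the 36 arrays without another tissue). Samhd1 (r = 0.75), A530040E14Rik (0.75), Pira1 (0.74), Lcp1 (0.73), Ifi47 (0.72), Pxk (0.72) and Nmi (0.71) followed. Over the 36 arrays the r of these genes ran from 0.67 (Lcp1) to 0.75 (A530040E14Rik). Their rank correlations (Spearman) over the 43 arrays were lower, from 0.45 (Pxk) to 0.63 (Samhd1), beside 0.78 for Psme2. Samhd1 is a dNTP hydrolase, Lcp1 encodes the leukocyte actin bundler L-plastin, and Ifi47 and Nmi are known as interferon-inducible. The points share arrays and tissue composition, and these values are descriptions. Of the lists, the score correlated most with the mean of the other class I genes (r = 0.73, and 0.80 over the 36 arrays) and of the class I regulators (0.71, and 0.66). Without the 2 arrays farthest from the median of each list, these 2 values were 0.60 and 0.57. The leukocyte list gave 0.66 and the interferon-inducible list 0.58, an order that turned over the 36 arrays (0.58 and 0.72), and the constitutive proteasome list gave -0.18.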

How the data were processed

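RNA of 43 mammary gland and 8 blood samples, 1 array each, was hybridised to Affymetrix HT_MG-430A arrays. The authors deposited log2 values after RMA (RMA and limma are named in the submitters' processing notes), which were used as deposited. The RMA version and settings are not given in the sources used here. RMA summarises probes that may differ in sequence match between strains, so that a strain difference of a probe set can reflect transcript level or probe match.

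Symbols came from the platform annotation, updated through gene identifiers to GRCm38.p6: 18003 probe sets had 1 symbol, 287 several and 4336 none. The members and gene lists were chosen with earlier results of these data known. Groups came from the sample labels, and where nothing says that samples of a group came from separate cages or litters, p-values measure the spread between these mice only.

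Group means were contrasted with limma 3.58.1 (R 4.3.3) over all 22626 probe sets, with Benjamini-Hochberg adjustment and a call at an adjusted p under 0.05. Dose and time comparisons used all MG arrays of a strain, the sham strain difference 13 arrays, blood 8, and strain differences of a response or within a group all 43. Probe sets of 1 H2 gene were compared with exact permutation tests over all strain labellings (numpy 2.4.6), with p adjusted in scipy 1.17.1. In sham MG these tests pooled both times, so their strain log2 fold changes can differ slightly from those of limma. Named were all member probe sets, up to 4 genes per list and comparison with an adjusted p under 0.05, an absolute log2 fold change above 0.58 and the smallest p, and the 8 genes most like the score. A list gene counted as called if any of its probe sets passed and was named at that with the smallest p, while list medians and counts of positive values used its brightest probe set. The fits were tested on simulated arrays. Precision is limited by the number of arrays, 2 to 4 per group. Alternatives are given in the closing section.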

Additional observations from a re-analysis of the deposited data

Results flagged for a closer look

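Within groups of 4 arrays, 9 of 160 combinations of group and member probe set held a single array far from the other 3 (gap over range above Dixon's critical value). Chance alone gives such an array in about 1 in 20 groups. Of the 9, 4 lay in C57BL/6 blood replicate 4, the array with liver transcripts: H2-D1 1451784_x_at with 11.10 against 11.82 to 11.96 in the others, H2-D1 1452544_x_at with 3.45 against 4.16 to 4.19, Psmb9 1450696_at with 7.68 against 8.20 to 8.29, and Tapbp 1421812_at with 8.96 against 9.77 to 9.86. All 4 were low in this array.

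In the MG, H2-D1 1452544_x_at was low in BALB/c LD 4 hr replicate 3, with 11.80 against 11.90 to 11.92. H2-K1 1424948_x_at was low in C57BL/6 LD 4 hr replicate 3, with 10.79 against 11.15 to 11.20. H2-K1 1450534_x_at was high in BALB/c HD 1 month replicate 2, with 6.47 against 6.16 to 6.19, an array without markers of another tissue. Tapbp 1421812_at was high in C57BL/6 LD 1 month replicate 2, with 10.98 against 10.86 in the others. Tapbp 1450378_at was low in C57BL/6 HD 1 month replicate 1, with 7.59 against 7.99 to 8.07.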

How the results depend on the processing

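The 2 high H2-D1 probe sets kept their direction and their call under every alternative run in sham MG and in blood, except with 1 probe set a gene, where another probe set stands for H2-D1, with log2 fold changes of 6.79 to 7.17 for 1427651_x_at and 7.68 to 7.77 for 1452544_x_at in sham MG. With 1 probe set a gene the number of members called was 1 in sham MG (3 otherwise) and 0 in blood (2 otherwise), as fewer probe sets enter. Of the 7 results with a count above 0, 2 kept it within 1.5 times under all alternatives, the pairs of H2 probe sets that differed (10) and the members called in all 6 dose and time groups (3). The other 15 results had 0 members called, and their count stayed at 0. H2-K1 1425336_x_at in sham MG was not called with the replicate block (log2 fold change -0.23, adjusted p = 0.0604), whereas Psmb9 1416016_at was then called (-0.28, adjusted p = 0.0476).

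The calls at 1 month after HD depended on the settings. For C57BL/6 HD 1 month against sham (1 member called), the count was 0 with the plate column as a covariate, with a fold minimum, without arrays holding another tissue, with only the groups compared, with all MG arrays in the fit and with the study's thresholds, and 2 with arrays centred on their medians or without dim probe sets. For C57BL/6 HD 1 month against HD 4 hr (2 called), it was 0 with the plate column, a fold minimum or only the groups compared, and 1 with centred arrays or all MG arrays. For BALB/c HD 1 month against HD 4 hr (1 called), it was 0 with the plate column, array weights, centred arrays, quantile normalization, 1 probe set a gene, without arrays holding another tissue or with only the groups compared, 2 with a variance trend and robust fit, and 3 without dim probe sets or with all MG arrays. With 1 array left out, the counts ran from 0 to 3 in each of these 3 comparisons. The members called in these 3 comparisons at the settings used kept their direction. Other members did not all do so. In BALB/c HD 1 month against sham, for example, 7 were positive and 9 negative without arrays holding another tissue. The cause of the dependence on the settings was not tested.

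Replicate numbers did not pair the arrays: residuals of the same number correlated at a mean of 0.0145 in BALB/c and 0.0124 in C57BL/6 MG, and at -0.128 in blood. With the replicate block the counts were 3 in sham MG, with 1 member exchanged as above, 2 in blood, 1 for C57BL/6 HD 1 month against sham, and 1 in BALB/c and 2 in C57BL/6 for HD 1 month against HD 4 hr. The precision of each group is limited by its 2 to 4 arrays.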
